A study of Anser anser with 2 samples.

Results

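miR-221 and miR-222 are a pair of miRNAs that were read in the liver of male Landes geese, in 1 library from control birds and 1 library from overfed birds. Every read sequence (tag) whose best matching miRNA name, once the species was dropped, was miR-221 or miR-222 with any letter or arm was taken, which gave 5 mature names out of 1132 in the series: miR-221-3p, miR-221-5p, miR-222-3p, miR-222-5p and miR-222b. The control library held 57798 of their reads among 9178938 listed miRNA reads, in 515 tags, and the overfed library 152829 among 9737540, in 806 tags. The experiment used 60 birds aged 90 days, split between both diets. The control diet was a basal feed with 2873 kcal and 171 g of protein per kg, eaten freely. The overfed diet was rich in carbohydrate, with 3353 kcal, 76 g of protein and 15 g of fat per kg, and was given for 21 days. The labels call the control tissue normal liver and the overfed tissue fatty liver. The sources used here do not state how many livers went into a library. With 1 library for each condition no test between conditions was possible, and each interval below is an exact 95% interval that covers counting error only. The family was chosen by its level and its ratio between these libraries, so its levels and ratios are a description and support nothing.

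A miRNA is cut from a hairpin precursor that can release a mature strand from its 5′ arm (5p) and from its 3′ arm (3p), and the bases that follow the first one, the seed, guide the strand to its target mRNAs. In mammals miR-221 and miR-222 lie close together, are made from a common transcript and share a seed. There they repress the cell cycle inhibitors CDKN1B (p27) and CDKN1C (p57) and the receptor KIT, and they are known in liver from regeneration, carcinoma, activated stellate cells and endothelium. These roles are known from mammals, and no target was measured here.

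The most common tag of each name is given first, because the shared seed and the bases that tell the names apart can be read from them. They are written 5′ to 3′ with T for U, and the capitals mark bases 2 to 8, the seed.
miR-221-3p: aGCTACATtgtctgctgggtttc
miR-222-3p: aGCTACATctggctactgggtc
miR-222b: aGCTACATctgattactgggtca
miR-221-5p: aCCTGGCAtacaatgtagattt
miR-222-5p: cGCTCAGTagtcagtgta
The 3 names of the 3′ arm had the same seed, and the references of miR-221-3p and miR-222-3p were identical over their first 8 bases and differ from base 9 on, so that even the shortest tags of 18 nt could be told apart. The reference of miR-222b, a name taken from the platypus, matched the chicken reference of miR-222-3p at 20 of 23 compared bases and differed from it by G12A, C13T and T23A, counted from the 5′ end. The 5p arms carried other seeds, and their references matched at 4 of 22 compared bases. The shared seed stood at bases 2 to 8 in 98.9% of the family's 3p reads in the control and in 98.6% of those in the overfed library, and 0 reads listed under any other name carried it there. Reads with this seed added up to 6131 RPM (reads per 1000000 listed miRNA reads) in the control, against 15283 RPM after overfeeding.

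The control held 31475 reads of miR-222-3p, or 3429 RPM, and the overfed library 98350 reads, or 10100.1 RPM. Its log2 ratio of overfed over control was 1.56 (1.54 to 1.58), or 2.95 times (2.91 to 2.98). It was the 12th most abundant name in the control and the 4th in the overfed library. With the listed total as base, its gain of 6671 RPM was second only to that of miR-122-5p, the hepatocyte miRNA. The log2 ratio of miR-122-5p was 0.03, and it falls below 0 with the scaling factors of edgeR or DESeq2. miR-221-3p had 25413 and 52609 reads, which is 2769 and 5403 RPM. Its log2 ratio was 0.96 (0.94 to 0.99), just under 2 times, and its rank went from 14th to 9th. The gain of miR-221-3p, 2634 RPM, came next after that of miR-222-3p. miR-221-5p, the scarcer strand of the miR-221 hairpin, stood at 93.4 and 185.0 RPM, with a log2 ratio of 0.99 (0.87 to 1.11). These 3 names were higher in the overfed library beyond counting error, and both counting intervals of each lay far apart.

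**Figure D1:**
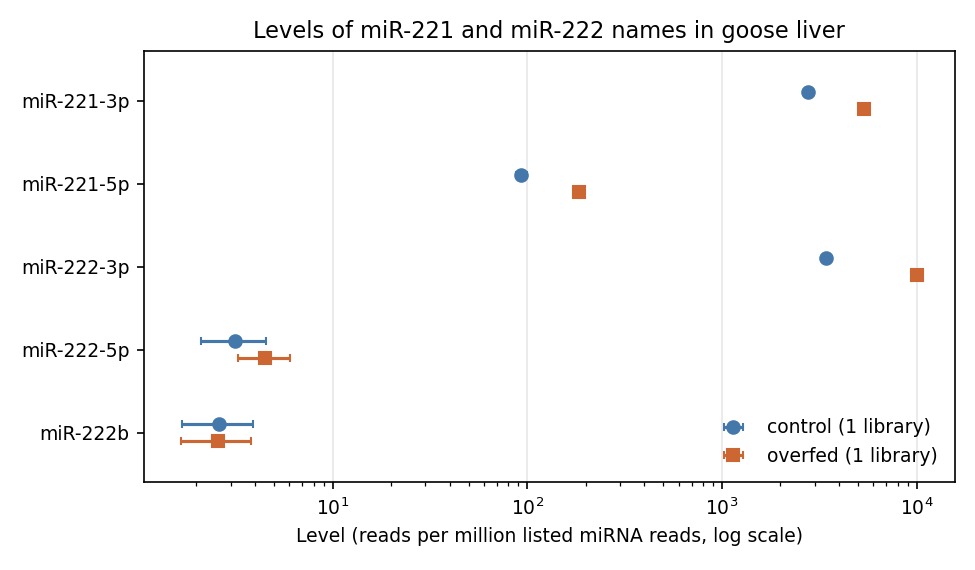
Level of each name in RPM (log axis) in the control (circles) and overfed (squares) library, with exact 95% Poisson intervals that cover counting error only. miR-221-3p, miR-221-5p and miR-222-3p lie to the right in the overfed library, while the intervals of miR-222-5p and miR-222b overlap.

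The remaining names were rare. miR-222-5p, the minor strand of miR-222, had 29 control and 44 overfed reads, 3.16 and 4.52 RPM, with a log2 ratio of 0.52 (-0.19 to 1.25). miR-222b had 24 and 25 reads, 2.61 and 2.57 RPM, and its log2 ratio of -0.03 (-0.89 to 0.84) left a difference in either direction within counting error. Neither reached a mean of 10 RPM, so 3 of the 5 names passed the minimum used for calls. Set against miR-222-3p, the log2 ratio of miR-222b differed by -1.58 (-2.45 to -0.71). All tags of miR-222b together made 0.0415% of the family's control reads and 0.0164% of its overfed reads. Of the miR-222b reads, 6 of 24 and 4 of 25 lacked the first base.

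To be called, a name needed 10 RPM or more as the mean of both libraries, a level 2 or more times that of the other library, and an interval without 1. Of the 3 names that passed the minimum, miR-222-3p met it, beside 7.41% of all 135 miRNAs past the minimum that were at least 2 times higher and 1.48% that were at least 2 times lower. The reads of all names together had a log2 ratio of 1.32 (1.30 to 1.33) and went from 0.63% to 1.57% of listed miRNA reads. Over the 135 miRNAs the median log2 ratio was 0.09. Just inside the limit of 2 times stood miR-184-3p (log2 ratio 1.01) and miR-193-5p (1.01), and just outside it miR-2981 (0.99), miR-221-5p and miR-221-3p. The ratios depend on the base they are taken to. edgeR's TMM factors lower all log2 ratios by a shift of -0.24, which left miR-222-3p at 1.32 and miR-221-3p at 0.73 and turned 10 higher and 2 lower calls into 3 and 7. Without miR-122-5p in the total, both arms of miR-221 passed 2 times, at 1.06 for miR-221-3p and 1.08 for miR-221-5p.

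**Figure D2:**
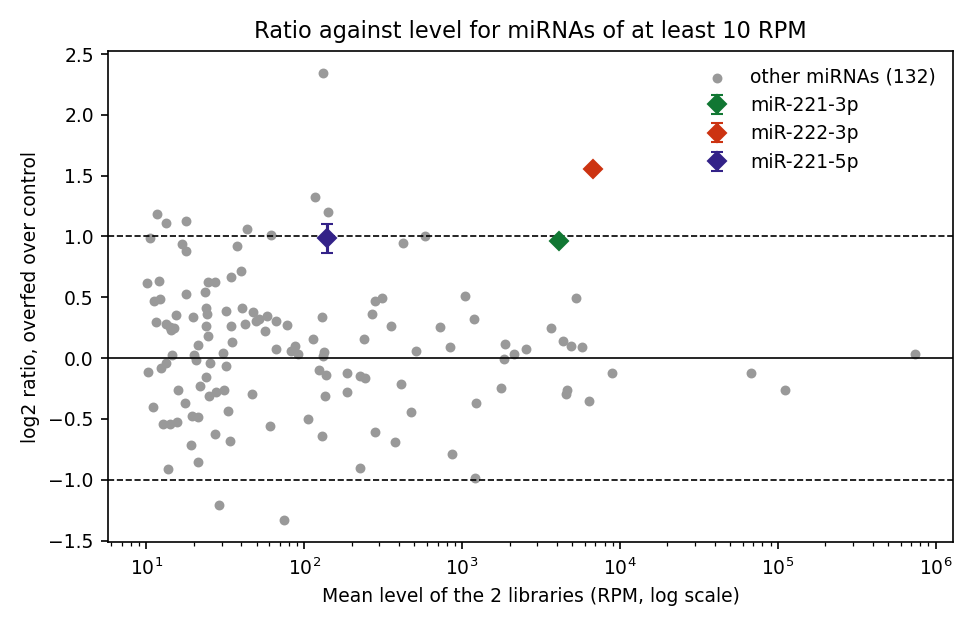
log2 ratio of overfed over control against the mean level of both libraries (RPM, log axis) for the 135 miRNAs of at least 10 RPM, with the members as diamonds with exact 95% counting intervals. Dashed lines mark 2 times in either direction; miR-222-3p stands above the upper one, and miR-221-3p and miR-221-5p stand at 0.96 and 0.99.

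miR-222-3p differed more between the libraries than miR-221-3p. For each miR-221-3p read there were 1.24 miR-222-3p reads in the control and 1.87 after overfeeding. Their log2 ratios differed by 0.59 (0.57 to 0.62, exact conditional interval of the odds ratio), a value that no scaling between libraries can change. Of all reads of the family, miR-222-3p held 54.5% and 64.4%, and miR-221-3p 44.0% and 34.4%.

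The arms of miR-221 differed alike. miR-221-5p made 3.26% (3.05% to 3.48%) of the control reads of both miR-221 arms and 3.31% (3.16% to 3.46%) of the overfed ones, so the intervals overlapped, and the log2 ratio of the 5p arm less that of the 3p arm was 0.02 (-0.10 to 0.14). For miR-222 the 5p arm made 0.092% (0.062% to 0.132%) and 0.045% (0.032% to 0.060%). Its log2 ratio was thus below that of miR-222-3p, by a difference of -1.04 (-1.75 to -0.31), which rests on the 29 and 44 reads given above. The most common miR-222-5p tag, with 18 nt, had 11 and 23 reads, and the form of 23 nt, cGCTCAGTagtcagtgtagattc, had 8 and 10.

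Among miRNAs outside the family and past the minimum, those whose log2 ratio lay nearest to that of the summed family were miR-375 (1.33), known from pancreatic islets, miR-4492 (1.20) and miR-499-5p (1.18), which lies in a myosin gene in mammals. Likeness here is the distance between log2 ratios over only 2 libraries. The names nearest in level had smaller ratios. Around miR-221-3p these were miR-21-5p (4143 and 4572 RPM, log2 ratio 0.14), miR-2476 (3367 and 4000 RPM, 0.25) and miR-199a-3p (5048 and 4119 RPM, -0.29). Around miR-222-3p they were let-7g-5p (7102 and 5556 RPM, -0.35), let-7b-5p (5573 and 5935 RPM, 0.09) and miR-107 (4350 and 6132 RPM, 0.50). With TMM factors miR-21-5p and let-7b-5p fall below 0.

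The tags of each arm were then compared one by one. Of the 24 family tags with a mean of at least 10 RPM, all had a log2 ratio above 0 and 17 were at least 2 times higher, 6 of 11 for miR-221-3p, 9 of 10 for miR-222-3p and 2 of 3 for miR-221-5p. Over the 815 tags of any miRNA past the same minimum, 386 had a log2 ratio above 0. Of those 815 tags, 6.87% were at least 2 times higher and 2.21% at least 2 times lower. The tags of an arm share its overall ratio, so their number adds nothing to it. What differed between them was the size of the ratio, which ran from 0.26 to 2.17 for miR-221-3p and from 0.85 to 2.29 for miR-222-3p.

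The miR-222-3p tags formed a ladder of 3′ ends on an unchanged start. They are shown because the ratio differed along the ladder; the capitals are the seed.
18 nt: aGCTACATctggctactg
20 nt: aGCTACATctggctactggg
21 nt: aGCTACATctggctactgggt
22 nt: aGCTACATctggctactgggtc
23 nt: aGCTACATctggctactgggtct
24 nt: aGCTACATctggctactgggtctc
The 22 nt tag had 1489 RPM in the control against 4731 after overfeeding, a log2 ratio of 1.67 (1.64 to 1.70). The 23 nt tag, 1 base longer, stood at 1336 and 3335 RPM, with a ratio of 1.32 (1.29 to 1.35). Of these 6 tags the shortest had the highest ratio and the longest the lowest. The 18 nt tag went from 110 to 519.5 RPM, with a log2 ratio of 2.24 (2.14 to 2.34). Its length is the shortest listed and lies below the 20 to 30 nt cut from the gel, and the effect of that cut was not tested. The 24 nt tag went from 43.7 to 78.8 RPM, with a log2 ratio of 0.85 (0.67 to 1.03). The tags of 20 and 21 nt had ratios of 1.79 and 1.52, so the order was broken between 21 and 22 nt. Among the tags of the arm past the minimum, the highest ratio belonged to a long, rare form. Its interval overlapped that of the 18 nt tag. The 23 nt tag with 2 further T, aGCTACATctggctactgggtcttt, had 35 and 181 reads and a log2 ratio of 2.29 (1.76 to 2.85). With 1 further T, aGCTACATctggctactgggtctt, it had 62 and 144 reads and a ratio of 1.13 (0.69 to 1.58).

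For miR-221-3p the main forms were 23 nt with a final C, 22 nt without it, and 22 nt followed by T in its place. They are shown because the overfed library held a smaller share of the form with C, and a larger share of a form that lacks the first base and so has a shifted seed, again in capitals.
With C: aGCTACATtgtctgctgggtttc
Without C: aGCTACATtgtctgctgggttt
T in place of C: aGCTACATtgtctgctgggtttt
First base missing: gCTACATTgtctgctgggttt
Reads that matched a reference without a mismatch made 85.0% and 84.3% of the arm. The form with C made 50.6% (50.0% to 51.3%) of the control reads of miR-221-3p and 40.5% (40.0% to 40.9%) of its overfed reads. Its level was 1402 and 2186 RPM, a log2 ratio of 0.64 (0.61 to 0.67). The form without C made 29.7% and 37.5%, with levels of 823 and 2028 RPM and a log2 ratio of 1.30 (1.26 to 1.34). The levels of both forms thus lay closer together in the overfed library. Reads of the 22 nt form followed by T alone, however many, made 11.8% (11.4% to 12.2%) and 12.6% (12.3% to 12.9%), and those followed by A alone 1.08% and 0.99%, with overlapping intervals. Which end bases the goose precursor encodes was not tested. The 21 nt form of this arm, aGCTACATtgtctgctgggtt, had 445 and 1340 reads and a log2 ratio of 1.51 (1.35 to 1.66). With 2 T after the 22 nt form, aGCTACATtgtctgctgggttttt had 377 and 653 reads and a ratio of 0.71 (0.52 to 0.89). The lowest ratio among miR-221-3p tags past the minimum belonged to the form with C and a further T, aGCTACATtgtctgctgggtttct, with 124 and 157 reads and a log2 ratio of 0.26 (-0.09 to 0.61). Next lowest was aGCTACATtgtctgctgggttat, with 96 and 156 reads and a ratio of 0.62 (0.239 to 0.997).

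The tag of miR-221-3p without its first base and final C had the highest ratio among the tags of the arm past the minimum. It went from 16.9 to 75.9 RPM, a log2 ratio of 2.17 (1.92 to 2.43). All reads that start 1 base late, whatever their end, numbered 301 and 1210, which is 1.18% (1.06% to 1.33%) and 2.30% (2.17% to 2.43%) of the arm. For miR-222-3p the same share was 0.403% (0.336% to 0.480%) and 0.427% (0.387% to 0.470%), which overlapped. For 20 miRNAs with 500 or more reads per library, 100 or more reads of both libraries together lacked the first base. Among them this share was higher in the overfed library with intervals apart for 30.0% and lower for 10.0%. miR-221-3p had the largest ratio of shares, 1.94, followed by miR-2779 (1.67), and the median over the 20 was 1.11. The ratio for miR-222-3p was 1.06.

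The 5p strand of miR-221 showed the opposite order of lengths. Its 3 main tags are shown because they differ only in their last bases.
22 nt: aCCTGGCAtacaatgtagattt
23 nt: aCCTGGCAtacaatgtagatttc
24 nt: aCCTGGCAtacaatgtagatttct
The 22 nt tag went from 46.8 to 72.0 RPM between control and overfed, a log2 ratio of 0.62 (0.44 to 0.80). The 23 nt tag stood at 14.5 and 35.02 RPM, with a ratio of 1.27 (0.98 to 1.57). The 24 nt tag stood at 20.5 and 59.0 RPM, with a ratio of 1.53 (1.29 to 1.77). Its share of the arm went from 21.9% (19.2% to 24.9%) to 31.9% (29.8% to 34.1%), and that of the 22 nt tag from 50.2% (46.8% to 53.6%) to 38.9% (36.7% to 41.2%). The next most common tags were rare, with 28 and 48 reads for the form that starts 1 base early and 22 and 24 reads for the form of 21 nt. All reads that start 1 base early made 4.43% of the arm in the control and 4.61% after overfeeding.

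**Figure D3:**
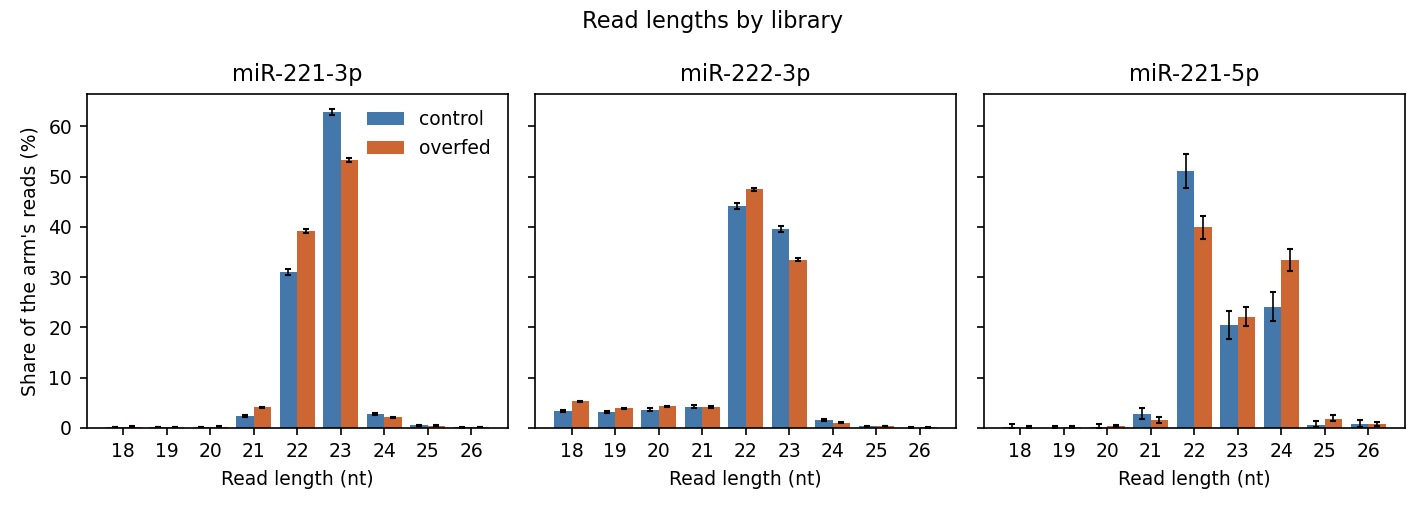
Share of each arm's reads (%) by read length (nt) in the control and overfed library, with exact 95% Clopper-Pearson intervals. The share at 23 nt is smaller in the overfed library for miR-221-3p and miR-222-3p, while for miR-221-5p the share at 24 nt is larger, 33.4% against 24.0%.

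Taken over all tags of a length, the log2 ratio of miR-222-3p was 2.24 at 18 nt, 1.67 at 22 nt, 1.32 at 23 nt and 0.96 at 24 nt, and it was higher again at 25 nt, at 1.61 (1.29 to 1.95, from 101 and 328 reads). That of miR-221-3p was 1.71 at 21 nt, 1.30 at 22 nt, 0.73 at 23 nt and 0.60 at 24 nt, then 0.85 (0.53 to 1.17) at 25 nt. That of miR-221-5p was 0.63 at 22 nt, 1.10 at 23 nt and 1.46 at 24 nt. At each length from 22 to 25 nt the ratio of miR-222-3p lay above that of miR-221-3p with intervals apart. Their difference was thus also present among reads of equal length in that range. At 18 to 21 nt the intervals of both overlapped, and at 21 nt miR-222-3p (1.53) lay below miR-221-3p (1.71).

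**Figure D4:**
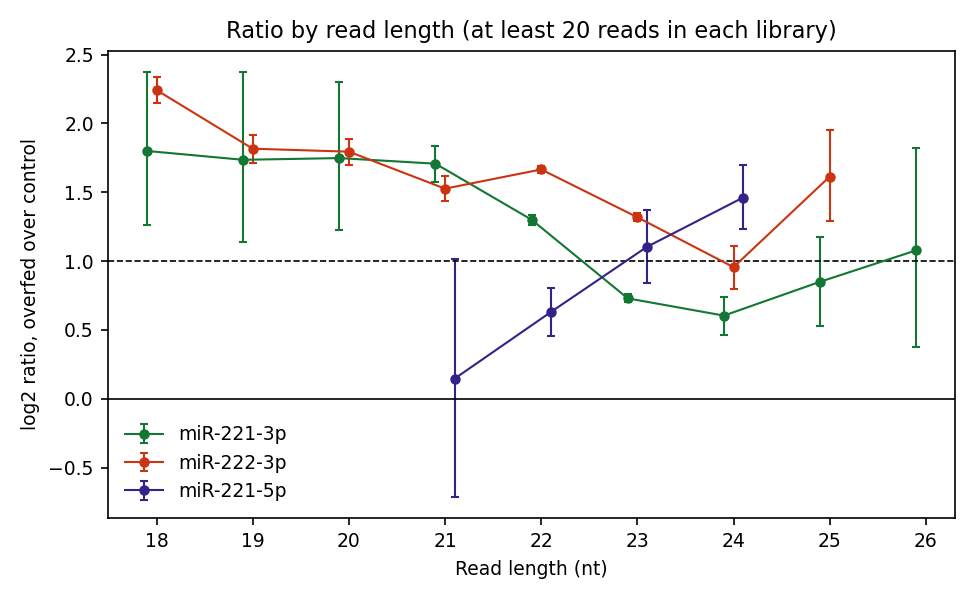
log2 ratio of overfed over control by read length (nt) for each arm, with exact 95% counting intervals, for lengths with at least 20 reads in each library. For miR-222-3p the ratio is 2.24 at 18 nt and 0.96 at 24 nt, but it is higher at 22 nt than at 21 nt and higher at 25 nt (1.61) than at 24 nt; the ratio is higher at 24 nt than at 22 nt for miR-221-5p (1.46 and 0.63).

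The overfed library had shorter reads as a whole: reads of 23 nt or more made up 24.5% in the control and 20.9% after overfeeding. For miR-221-3p the share of 23 nt or more was 66.1% and 56.0%, and for miR-222-3p 41.5% and 34.96%, both lower with intervals apart, as for 44.3% of the 61 miRNAs with 500 or more reads per library. For miR-221-5p it was 45.7% (42.4% to 49.1%) and 58.1% (55.8% to 60.4%), higher with intervals apart, as for 8.20% of the 61. The mean read length of miR-221-5p was 22.69 nt (standard error over reads 0.03) and 22.95 nt (0.02), a difference of 0.26 nt (0.04). This was the largest lengthening of the 61, of which 8 had longer and 53 shorter reads in the overfed library. miR-146-5p came next, with 0.24 nt. The mean lengths of miR-221-3p and miR-222-3p differed by -0.13 and -0.18 nt, beside a median of -0.10 nt over the 61.

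**Figure D5:**
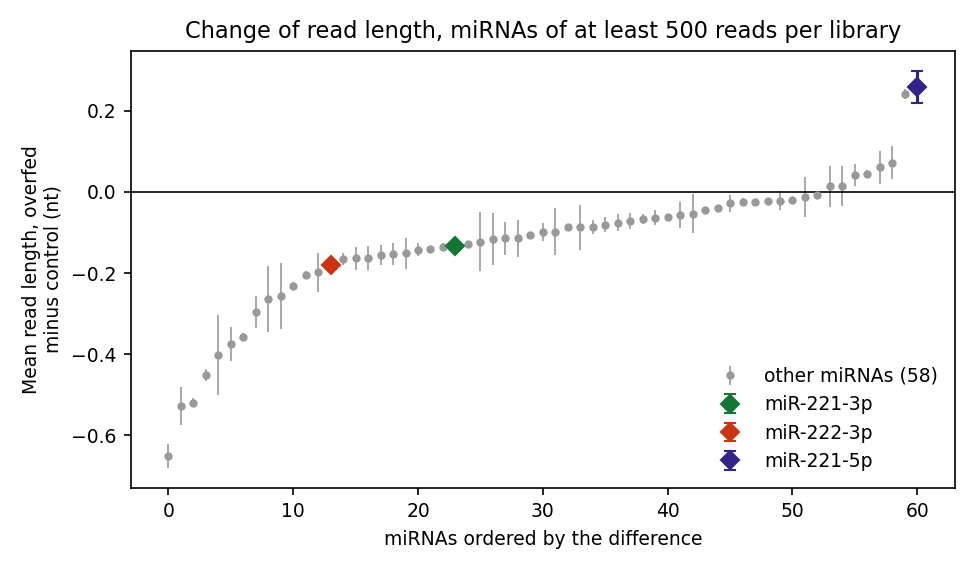
Mean read length in the overfed library minus that in the control (nt, with the standard error over reads) for the 61 miRNAs with 500 or more reads per library, in order of the difference. miR-221-5p lies at the upper end at 0.26 nt, and miR-222-3p (-0.18) and miR-221-3p (-0.13) lie among the miRNAs with shorter reads.

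Markers of cell types are given beside these levels as sums of all names on each list, with the total of listed reads as base. The muscle and pancreatic lists are of tissues other than liver. The hepatocyte, endothelial, leukocyte and muscle sums had log2 ratios of 0.03, 0.13, 0.06 and 0.11, which all fall below 0 after the TMM shift of -0.24. The stellate and red cell sums are below 0 with both bases, and the epithelial (1.17) and pancreatic (1.32) sums stay above 0. In bulk tissue a change in the share of a cell type and a change of RNA per cell cannot be told apart. Hepatocyte names summed to 727250 and 744245 RPM, nearly all of it miR-122-5p, which defines hepatocytes and held 72.7% and 74.4% of reads. Of the other hepatocyte names past the minimum, miR-122-3p stood at 237 and 329 RPM (log2 ratio 0.47) and miR-148a-3p at 465 and 287 RPM (-0.69). Both arms of the endothelial miR-126 were read and summed to 87.0 and 95.5 RPM, with log2 ratios of 0.30 (0.14 to 0.47) for miR-126-5p and -0.31 (-0.58 to -0.05) for miR-126-3p. Stellate and mesenchymal names, with all 4 listed miRNAs read, summed to 7276 and 6029 RPM, and 5 of 7 past the minimum were lower beyond counting error, beside 31.1% of all 135 miRNAs. Leukocyte names summed to 2680 and 2801 RPM, most of it miR-146-5p (2494 and 2623 RPM). Among them miR-142-5p (81.4 and 84.6 RPM, log2 ratio 0.06) did not differ beyond counting error. Of the less abundant leukocyte names, miR-146c was lower (40.1 and 17.4 RPM, log2 ratio -1.21) and miR-223-3p higher (19.3 and 29.7 RPM, 0.62). Red cell names summed to 360 and 318 RPM. Muscle names summed to 831 and 898 RPM, most of it miR-1-3p (815 and 869 RPM), while miR-499-5p went from 7.19 to 16.3 RPM (1.18). Epithelial names, of which miR-141 had 0 reads, summed to 126 and 282 RPM, with miR-203-3p at 43.1 and 219 RPM, while miR-200a-3p (log2 ratio -0.29) and miR-200b-3p (-0.72) were lower beyond counting error. Pancreatic names, of which miR-216 had 0 reads, summed to 67.1 and 168 RPM, nearly all of it miR-375. Their part in the levels of miR-221 and miR-222 was not tested.

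Other miRNAs known to act on the same targets in mammals were listed by number, with any letter or arm. They were compared by count, with the total of listed reads as base. The 2 arms of a hairpin carry different seeds, and whether each listed arm acts on the target was not tested. Over all 135 miRNAs, 45.9% were higher and 31.1% lower beyond counting error. Both names of the KIT list past the minimum were higher, miR-193-5p at 40.6 and 82.0 RPM (log2 ratio 1.01) and miR-193b-3p at 52.1 and 60.9 RPM (0.23, and below 0 with TMM factors). On the CDKN1B list 3 of 7 were higher and 2 lower, with a median log2 ratio of 0.05. After the TMM shift of -0.24, fewer names of this list were higher and more were lower beyond counting error. There miR-148b-3p stood at 0.33, miR-148a-3p at -0.69, miR-24-3p at -0.15 and miR-181a-5p at 0.05, the last below 0 with TMM factors. The family's own reads exceeded the sum of both lists in each library: the KIT list summed to 102 and 154 RPM and the CDKN1B list to 2003 and 2099 RPM, against 6297 and 15695 RPM.

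The last lists hold miRNAs of processes in which miR-221 and miR-222 are known. Their counts are of names beyond counting error, beside 45.9% higher and 31.1% lower over all 135 miRNAs. Of the 10 fibrosis names past the minimum, 3 were higher and 7 lower, with a median of -0.29. The list was not split into miRNAs that promote and that oppose fibrosis, so its counts give no direction for the process. miR-199a-3p, miR-21-5p, miR-29c-3p (-0.90), which targets collagen genes, and miR-199a-5p (0.15, below 0 with TMM factors) were the most abundant. Of the 15 angiogenesis names, 7 were higher and 3 lower, with a median of 0.04. Among them miR-92-3p stood at 0.36, miR-23a-3p at 0.01 (below 0 with TMM factors) and miR-27d-3p at 0.34. The counts on both lists depend on the base: after the TMM shift of -0.24, fewer names were higher and more were lower beyond counting error. No name past the minimum on these 2 lists was 2 times higher or lower with the total as base, but miR-29c-3p was more than 2 times lower with TMM or DESeq2 factors.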

How the data were processed

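Total RNA of liver was extracted with Trizol and fragments of 20 to 30 nt were cut from a gel for Illumina sequencing, per the labels' protocols. The authors deposited, for each library, the count of reads of every distinct tag matched to a miRNA, as whole numbers without normalization, with the reference of any species, the mismatches and gaps, and an alignment score. In every deposited row the score was a sum of 2 per match, minus 1 per mismatch and minus 3 per gap; it entered no result. The lists hold miRNA reads only, so a library may have been sequenced more deeply than its listed total shows. The matching tool and the release of the miRNA database were not given in the sources used here. At these totals a single read is worth 0.109 RPM (control) or 0.103 RPM (overfed), and where none was read the level may reach 0.327 or 0.308 RPM, the worth of 3 counts. The shortest tags had 18 nt.

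Counts were summed by miRNA name and arm over species. Letterless and lettered names were joined when their references had a common run of 18 or more bases that missed no more than 2 bases of the shorter. Ratios of RPM have exact conditional binomial intervals and shares have Clopper-Pearson intervals, both at 95%. The intervals cover counting error only. Reads carry no molecular identifiers, so copies of a molecule count as separate reads and the intervals may be too narrow even for that error. No p-value was computed, since each group has 1 library. The rule for naming tags took the 5 most abundant of each arm and, past 10 RPM, the 2 highest and 2 lowest ratios; for miR-222-5p and miR-222b only their leading tags are named, as the rest had few reads. The named cell type markers were limited to a few of those the rule allows. The members, lists and rules were chosen with earlier results of these data known. The rule of size was tested on simulated Poisson counts, without variation between birds or libraries and without true changes near 2 times. That test says nothing about names near the limit. Alternative scaling factors came from edgeR 4.0.16 and DESeq2 1.42.0 under R 4.3.3. Everything else ran in Python 3.11.15 (scipy 1.17.1, numpy 2.4.6, pandas 2.3.3), and figures were drawn with matplotlib 3.10.9. One further list of miRNAs is not reported here. Genome positions of the miRNAs were not analysed here.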

Additional observations from a re-analysis of the deposited data

How the results depend on the processing

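No paired analysis was possible because the labels give 1 library for control and 1 for overfed, and no replicate could be left out. Of 59 values recomputed under alternatives, 10 moved, meaning shares or differences beyond their error or counts of calls by over 1.5 times. Another 3, all log2 ratios, passed the limit of 2 times. The log2 ratios were compared only by sign and by call, not with their error. With another scaling they could leave their counting interval, as miR-222-3p did with TMM factors (1.32, against 1.54 to 1.58). With TMM factors the number of calls over all miRNAs was 10 instead of 12, but they were 3 higher and 7 lower, and 5 were among the original 12. miR-222-3p and the summed family stayed at least 2 times higher under each alternative run for them. Without miR-122-5p in the total, miR-221-3p (log2 ratio 1.06) and miR-221-5p (1.08) passed 2 times, and among tags of 21 or more bases miR-221-5p did (1.004). With those longer tags the difference between miR-222-3p and miR-221-3p was 0.55, the share of the most common miR-222-3p tag differed by 5.76 percentage points instead of 3.41, and the share of 23 nt or more by -5.85 instead of -6.57. With tags without a mismatch, the most common miR-221-3p tag differed by -11.6 points instead of -10.2 and its share of 23 nt or more by -12.0 instead of -10.1; such tags leave out the forms that end in T in place of C. The 12 calls over all miRNAs became 26 without miR-122-5p, 38 with no minimum, 5 with a minimum of 100 RPM, 36 with a fold of 1.5 and 1 with a fold of 4, since more or fewer names then qualify. The read counts of miR-222-5p and miR-222b limit what can be said of them.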

Other observations

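Single substitutions within the most common tags of miR-221-3p and miR-222-3p were rare away from the 3′ end. From base 2 to base 17, counted from the 5′ end, A7G, C3G and G2T were level as the most frequent in the 23 nt tag of miR-221-3p in the control, with 5 reads each (0.039%). After overfeeding it was G2T, with 13 reads (0.061%). In the 22 nt tag of miR-222-3p it was C3G in both libraries, at 0.051% and 0.043%. At the last base of the 23 nt miR-221-3p tag, C23T made 16.6% of control and 21.5% of overfed reads, each as a share of that form and the parent tag together, and C23A made 2.03% and 2.30%. The last base of the 23 nt miR-222-3p tag showed less of this, with T23A at 0.20% and 0.16%.

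Reads of miR-222b differ from miR-222-3p by 2 neighbouring inner bases, and 21 of its 24 control reads and all 25 overfed reads matched its reference without a mismatch.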
